A study of Mus musculus with 6 samples.

Results

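The genes described here encode 10 enzymes and folding helpers that turn newly made collagen chains into secreted procollagen and then trim it: the prolyl 4-hydroxylase subunit genes P4ha1, P4ha2 and P4ha3, the lysyl hydroxylase genes Plod1, Plod2 and Plod3, the folding helper genes Serpinh1 and Fkbp10, and the genes Pcolce and Bmp1 of propeptide removal. They were chosen by name, and probes were taken whose RefSeq accession maps to these symbols. All 10 genes had a probe, 15 probes in all, of 37153 genes and unnamed features and 55681 probes on the array. Gene expression was measured on 1-colour mouse arrays in 3 groups of 2 arrays each. Muscle-derived stem cells (MDSC), the cells of digested hindlimb muscle that attach last to coated dishes, were grown from male mice aged 5 weeks that are labelled null for Mstn, the gene of the muscle growth inhibitor myostatin, and from wild-type (WT) mice. Both were at passage 1 and untreated, and the labels give 2 isolations for each genotype. Embryonic stem cells (ESC) of the established mouse line W4 were measured at passages 12 and 15, called replicates 1 and 2 here.

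The allele of the Mstn-null mice is not given in the sources used here, the MDSC are expanded mixed cultures and not a clone, and the ESC arrays are passages of 1 line, so their spread may be smaller than that between lines. The labels describe the ESC colonies as free of feeders, although the cells had been grown on mouse embryonic fibroblasts that were removed by a short plating step. Values are log2 signals relative to the 75th percentile of the array, and between 53.3% and 64.6% of the 59305 spots of an array were well above background. The Mstn probe did not check the genotype as labelled: it read -3.06 and -2.47 where the label is Mstn-null, against -4.90 and -6.71 in WT MDSC, both too dim to count as above background. Groups are called by their labels, on which each direction between them rests. Each ESC array showed all 12 pluripotency markers well above background, and each MDSC array showed 7 or 8 of them, without Pou5f1 and Zfp42. The mean level of the 12 was 5.38 and 5.46 on the ESC arrays and from -3.34 to -3.04 on the MDSC arrays. By the test used below, 11 of the 12 were lower in MDSC, beside 31.4% of all features tested. The other 1, Nanog, was called higher in MDSC (log2 difference 0.56), beside 28.3% of all features tested. Its probe read -0.77 and -0.66 on the ESC arrays, the lowest of the 12 markers there, and from -0.20 to -0.07 in MDSC. Whether that probe reports Nanog RNA was not tested. Of 14 muscle markers, 13 or 14 were well above background on the MDSC arrays and 11 on the ESC arrays, which lacked Myod1 and Myog.

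Collagen chains are modified in the endoplasmic reticulum before they fold. Prolyl 4-hydroxylase, a tetramer of alpha subunits (the P4ha genes) and the beta subunit P4HB, makes the hydroxyproline that keeps the triple helix stable at body temperature, and lysyl hydroxylases make the hydroxylysine used for sugar attachment and for crosslinks. The collagen chaperone HSP47 (Serpinh1) binds the folded helix and the prolyl isomerase FKBP65 (Fkbp10) helps it fold, and outside the cell the protease BMP1, assisted by the enhancer protein of Pcolce, removes the C-terminal propeptide so that fibrils can form. Connective tissue cells of muscle are the best known makers of fibrillar collagen there.

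All 10 genes were well above background on all 6 arrays, and all 10 were higher in MDSC than in ESC (limma, two-sided, Benjamini-Hochberg adjusted p from 0.000283 to 0.00755). Of all 25057 features tested (genes and unnamed probes), 28.3% were called higher in that comparison and 31.4% lower. The 10 log2 differences ran from 1.67 (P4ha3) to 4.08 (P4ha2), with a median of 2.95 against -0.03 over everything tested. In each gene the lowest of the 4 MDSC arrays lay above the highest of the 2 ESC arrays, as did 33% of all features tested. The mean level of the 10 genes was 4.54 and 4.69 on the Mstn-null arrays and 4.70 and 4.13 on the WT arrays, against 1.61 and 1.67 on the ESC arrays. Signals of whole cultures cannot tell a larger share of collagen-making cells from more RNA per cell.

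**Figure D1:**
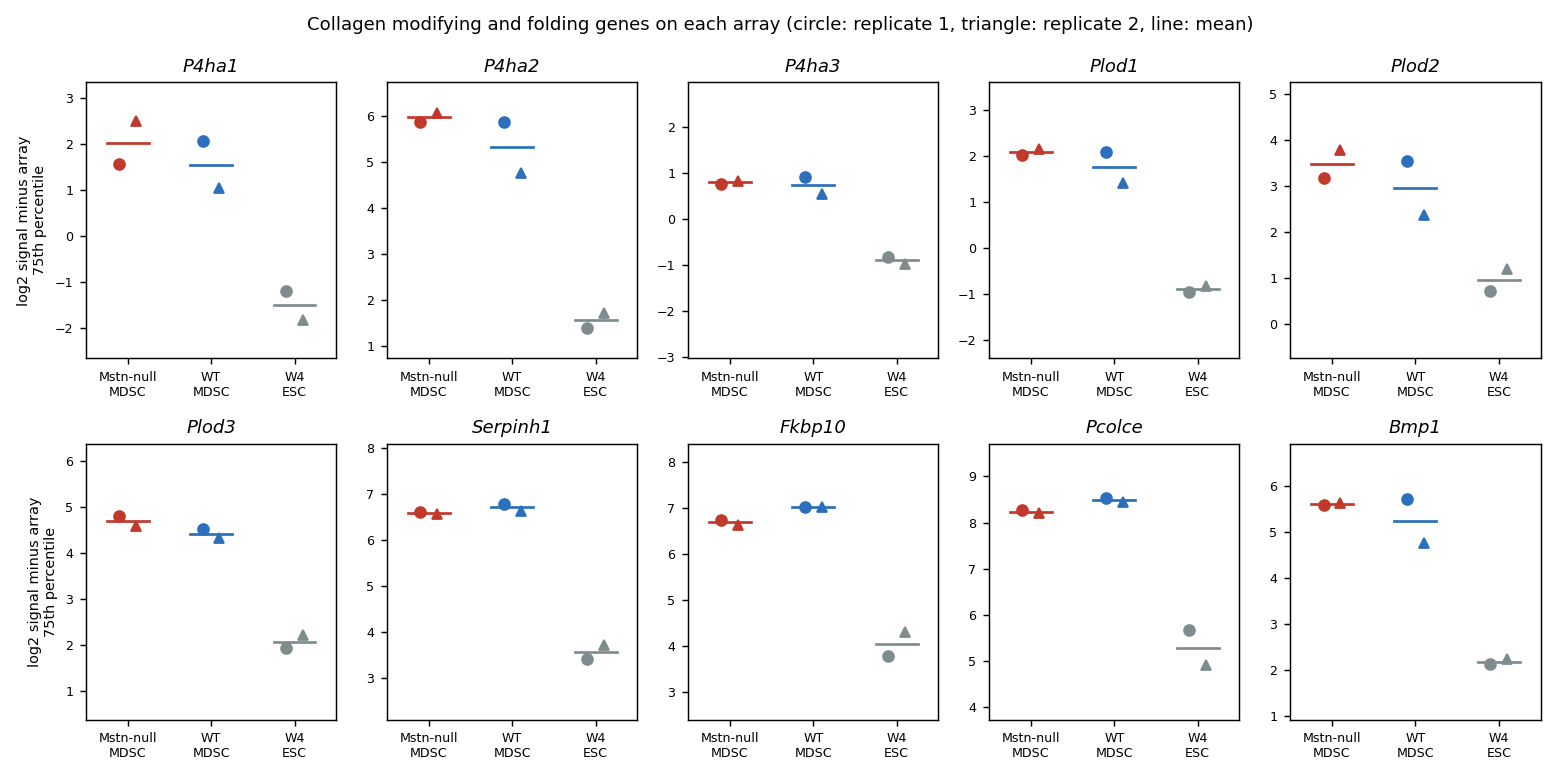
Level of each of the 10 genes on each of the 6 arrays, as log2 signal minus the array's 75th percentile (y axis, the same span of 6 log2 units in each panel), for Mstn-null MDSC, WT MDSC and W4 ESC (x axis), with replicates as circles and triangles and group means as lines. In all 10 panels the 4 MDSC points lie above both ESC points, and in P4ha1, P4ha2, Plod1, Plod2 and Bmp1 the second WT array lies below the other 3 MDSC arrays.

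Promoter sequences of 7 of the 10 genes were matched by symbol in RefSeq (build GRCm38.p6), and Plod2, Fkbp10 and Bmp1 had no entry. The 250 bases before the start site were searched on both strands for ACGTG, a form of the core of the site known for hypoxia-inducible factors. Other forms of that core were not searched. ACGTG was found in 4 of the 7, those of P4ha1, P4ha2, Plod3 and Serpinh1, and in 16.6% of all 32851 promoters of the same length. All 7 genes, with or without a match, were higher in MDSC. The 4 promoters are shown because they hold a match, with ACGTG or its reverse complement in capitals.
P4ha1, chr10:59323046-59323295, plus strand: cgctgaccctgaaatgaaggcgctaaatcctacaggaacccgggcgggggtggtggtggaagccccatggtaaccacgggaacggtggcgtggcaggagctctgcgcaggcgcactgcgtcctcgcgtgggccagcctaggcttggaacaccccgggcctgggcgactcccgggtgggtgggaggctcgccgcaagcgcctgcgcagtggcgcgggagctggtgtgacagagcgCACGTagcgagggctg
P4ha2, chr11:54100674-54100923, plus strand: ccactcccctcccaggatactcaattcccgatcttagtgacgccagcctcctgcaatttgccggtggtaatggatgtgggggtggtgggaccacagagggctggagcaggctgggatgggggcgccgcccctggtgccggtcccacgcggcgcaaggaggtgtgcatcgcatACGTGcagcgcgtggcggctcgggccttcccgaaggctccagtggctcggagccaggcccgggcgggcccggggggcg
Plod3, chr5:136986769-136987018, plus strand: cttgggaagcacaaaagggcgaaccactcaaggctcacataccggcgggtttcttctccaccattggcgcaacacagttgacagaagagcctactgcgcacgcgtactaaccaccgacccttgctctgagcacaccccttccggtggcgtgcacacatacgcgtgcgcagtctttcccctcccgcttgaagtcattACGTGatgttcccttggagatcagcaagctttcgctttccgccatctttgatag
Serpinh1, chr7:99353240-99353489, minus strand: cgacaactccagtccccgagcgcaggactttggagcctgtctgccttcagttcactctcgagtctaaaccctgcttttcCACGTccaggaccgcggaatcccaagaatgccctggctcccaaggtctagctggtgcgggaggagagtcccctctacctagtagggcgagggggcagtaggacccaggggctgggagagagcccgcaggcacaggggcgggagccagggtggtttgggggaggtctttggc

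The match began 16 bases before the start site in P4ha1, 78 in P4ha2, 54 in Plod3 and 171 in Serpinh1. GGGCGG, a GC box, was found in 6 of the 7 promoters (all but that of Plod3) and in 32.7% of all promoters. CCAAT was found in Plod3 alone of the 7 (33.8% of all) and TATAAA in Plod1 alone (12.4%). Neither GAANNTTC, a form of the heat shock element, nor the endoplasmic reticulum stress element, whose letters include CCAAT, was found in any of the 7, against 6.69% and 0.113% of all promoters. A match is only a run of letters, and no binding was measured.

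Among the prolyl 4-hydroxylase subunits, P4ha2 had the largest difference of the 10 genes. Its level was 5.87 and 6.06 on the Mstn-null arrays and 5.87 and 4.76 on the WT arrays, against 1.40 and 1.72 on the ESC arrays. The difference between MDSC and ESC was 4.08 ± 0.34 (SE, n = 4 and 2 arrays), or 16.9-fold, with limma adjusted p = 0.000942. P4ha1, the widely expressed subunit gene, was at 1.57 and 2.50 in Mstn-null MDSC and at 2.06 and 1.05 in WT MDSC, against -1.19 and -1.81 in ESC. It was 9.81-fold higher in MDSC (3.29 ± 0.43, adjusted p = 0.00295), and a fit of every probe on its own gave 3.25 ± 0.43 for its other probe. The MDSC arrays spread over more than 1 log2 unit in both genes, with the second WT array lowest, and still did not overlap ESC.

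P4ha3, the third subunit gene, gave a size that depended on the probe. Its brightest probe (A_55_P2003033) read 0.78 and 0.83 in Mstn-null MDSC and 0.93 and 0.56 in WT MDSC, against -0.81 and -0.98 in ESC, a difference of 1.67 ± 0.17 (adjusted p = 0.00146). The other probe (A_55_P2003034), of the same accession, read 0.67 and 0.78 in Mstn-null MDSC and 0.72 and 0.19 in WT MDSC, against -2.96 and -3.85 in ESC. That is a difference of 3.99 ± 0.31 (adjusted p = 0.000746 over all probes), so P4ha3 was higher in MDSC by both probes, by 3.17-fold on the brightest. With the mean over both probes the difference was 2.83. The difference between the probes was not tested. P4hb, the gene of the beta subunit, is no alpha subunit but is needed by all 3 of them, and it was higher in MDSC by 1.99 ± 0.18 (adjusted p = 0.00108).

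The 3 lysyl hydroxylase genes were also all higher in MDSC. Plod1, which acts mainly on lysines of the helix, was at 2.03 and 2.16 in Mstn-null MDSC and 2.09 and 1.42 in WT MDSC, against -0.95 and -0.83 in ESC. The difference was 2.82 ± 0.23 (7.04-fold, adjusted p = 0.000859), and 2.74 ± 0.28 by its other probe. Plod3, whose protein also adds sugars to hydroxylysine, was at 4.80 and 4.59 in Mstn-null MDSC and 4.52 and 4.31 in WT MDSC, against 1.94 and 2.20 in ESC. It was the least spread of the 3 over the MDSC arrays and differed from ESC by 2.48 ± 0.17 (5.60-fold, adjusted p = 0.000547).

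Plod2, the lysyl hydroxylase gene for the chain ends from which crosslinks start, had the weakest call of the 10. Its level was 3.17 and 3.78 in Mstn-null MDSC and 3.54 and 2.36 in WT MDSC, against 0.71 and 1.18 in ESC. The groups did not overlap, and the difference was 2.27 ± 0.41 (4.82-fold, adjusted p = 0.00755). The call ended without ESC replicate 1 (2.03, adjusted p = 0.0507). WT MDSC against ESC (2.01, adjusted p = 0.02) lost its Plod2 call without ESC replicate 1 (1.77, adjusted p = 0.0883) and without ESC replicate 2 (2.24, adjusted p = 0.0572). It also lost it without the first WT array (1.42, adjusted p = 0.0556). Mstn-null MDSC against ESC (2.53, adjusted p = 0.00962) lost it without Mstn-null replicate 2 (2.23, adjusted p = 0.0541). No other of the 10 genes lost a call in the 3 comparisons with ESC when 1 array was left out.

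The 2 folding helpers varied little among the MDSC arrays. Serpinh1 was at 6.61 and 6.57 in Mstn-null MDSC and 6.78 and 6.64 in WT MDSC, against 3.42 and 3.72 in ESC. Its difference of 3.09 ± 0.16 (8.49-fold) had the smallest adjusted p of the 10, 0.000283. Fkbp10 was at 6.75 and 6.63 in Mstn-null MDSC and at 7.02 on both WT arrays, against 3.78 and 4.32 in ESC. It differed by 2.80 ± 0.20 (6.99-fold, adjusted p = 0.000592). The 4 MDSC arrays lay within 0.5 log2 units in both genes, as they did in P4ha3, Plod3 and Pcolce, and spread more widely in P4ha1, P4ha2, Plod1, Plod2 and Bmp1.

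Of the genes for propeptide removal, Pcolce, whose protein speeds up cleavage by BMP1, read 8.27 and 8.20 in Mstn-null MDSC and 8.53 and 8.45 in WT MDSC, against 5.66 and 4.90 in ESC. It was 8.47-fold higher in MDSC (3.08 ± 0.25, adjusted p = 0.000819), and the wider spread was that of the ESC arrays. Bmp1, the gene of the protease, had 3 probes. The brightest read 5.59 and 5.63 in Mstn-null MDSC and 5.71 and 4.76 in WT MDSC, against 2.13 and 2.24 in ESC, a difference of 3.24 ± 0.29 (9.44-fold, adjusted p = 0.00109). A probe for a non-coding transcript of Bmp1 gave 3.42 ± 0.42. The third probe (A_55_P2006708) read 2.80 and 2.83 in Mstn-null MDSC and 2.83 and 2.19 in WT MDSC, against 1.75 and 1.89 in ESC. Its difference was 0.84 ± 0.22 (adjusted p = 0.0249 over all probes), and in WT MDSC alone against ESC it did not pass (0.69, adjusted p = 0.0732). Of the 15 probes, all 15 were called higher in MDSC against ESC, beside 28.3% of the genes tested and 27.3% of the probes tested.

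**Figure D2:**
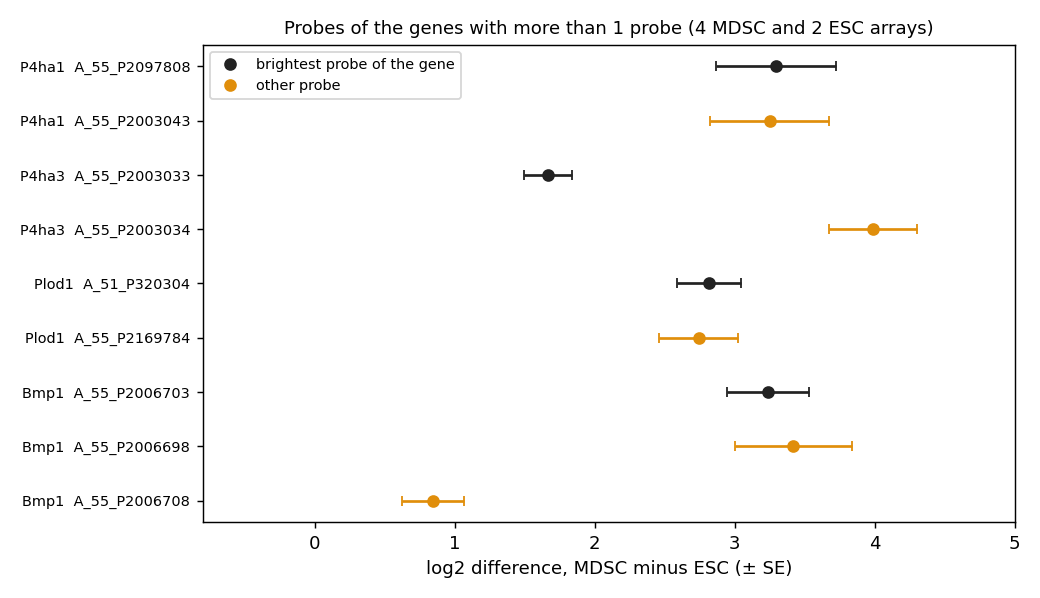
Log2 difference between MDSC and ESC (x axis, points with SE bars, 4 and 2 arrays) for each probe of the 4 genes with several probes, the brightest in black and the others in orange. The probes of P4ha1 and of Plod1 lie together, whereas those of P4ha3 stand at 1.67 and 3.99 and those of Bmp1 at 3.24, 3.42 and 0.84.

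Each genotype was also set against ESC on its own, and the 2 comparisons share the ESC arrays. All 10 genes were higher in Mstn-null MDSC than in ESC, where 23.3% of all features tested were, with differences from 1.70 (P4ha3) to 4.40 (P4ha2). All 10 were higher in WT MDSC than in ESC, where 27.1% of all features were, with differences from 1.64 (P4ha3) to 3.76 (P4ha2). Both WT arrays were on a slide of their own, apart from the other 4 arrays, so an effect of slide and one of the WT group cannot be told apart. A fit to the slide that holds Mstn-null MDSC and ESC takes its means from the same 4 arrays as that comparison above. Its differences, from 1.70 to 4.40, are thus the same by construction and add no further support. In that fit all 10 genes were called higher (limma adjusted p of at most 0.00609), beside 23.1% of the features tested. These 4 arrays also enter the pooled comparison.

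**Figure D3:**
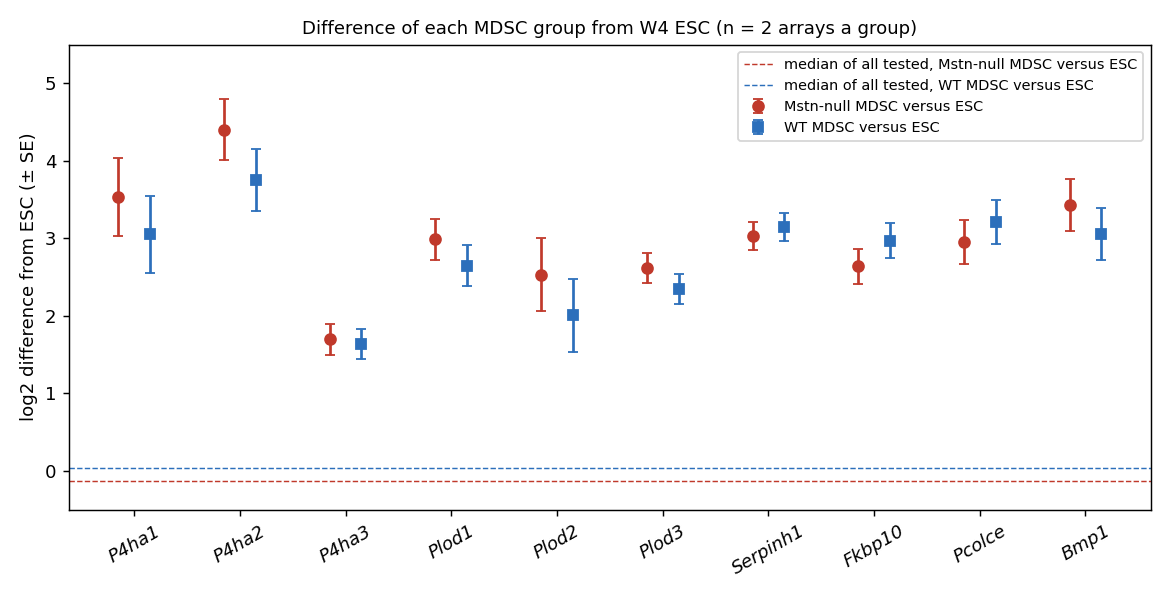
Log2 difference from ESC (y axis, points with SE bars, 2 arrays a group) for each of the 10 genes (x axis) in Mstn-null MDSC and WT MDSC, with the median of all features tested in each comparison as a dashed line, at -0.12 for Mstn-null MDSC and 0.03 for WT MDSC. All 20 points, from the brightest probe of each gene, lie between 1.64 and 4.40, lowest in P4ha3 and highest in P4ha2. The other probe of P4ha3, not drawn, stood at 4.12 in Mstn-null MDSC and 3.85 in WT MDSC.

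The second comparison asked whether the Mstn-null and WT cultures differed. None of the 10 genes passed (limma, adjusted p from 0.537 to 0.916), and 0% of the 25057 features tested did. Of the 10 genes, 0 had an unadjusted p under 0.05 against 14.7% of all features. The differences ran from -0.33 (Fkbp10) to 0.65 (P4ha2) with a median of 0.31, against -0.12 over all features. They were above 0 in 7 of 10 genes, against 36.7% of all features. The 95% interval of the difference ran from -0.37 to 1.67 in P4ha2, from -0.80 to 1.76 in P4ha1, from -0.68 to 1.73 in Plod2 and from -0.58 to 0.35 in Serpinh1. A 2-fold change in either direction thus lay outside the interval of Serpinh1, Fkbp10, Pcolce, Plod3 and P4ha3, and inside that of P4ha1, P4ha2, Plod1, Plod2 and Bmp1 in the upward direction. For P4ha3 this held on the brightest probe, and the other probe (0.27) had an interval from -0.65 to 1.19. The other probe of Plod1 had the opposite sign (-0.17, from -1.01 to 0.66).

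The arrays of the 2 genotypes did not overlap in 4 of the 10 genes. Plod3 was above in both Mstn-null arrays, as were 16.6% of all features, and Serpinh1, Fkbp10 and Pcolce were below, as were 34.8%. Serpinh1 stood at -0.12, and at 0.04 with median centring or quantile normalization, so even its sign followed the scaling. Fkbp10 stood at -0.33, and at -0.17 with median centring. In the other 6 genes the arrays of the genotypes overlapped.

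The second WT array was the lowest of the 4 MDSC arrays in 7 of the 10 genes, against 22.8% of all features. The exceptions were Serpinh1, Fkbp10 and Pcolce. The first WT array stood above the second by 1.18 in Plod2, 1.11 in P4ha2, 1.01 in P4ha1, 0.95 in Bmp1 and 0.67 in Plod1, whereas Fkbp10 was at 7.02 on both. Without the second WT array the median difference of the 10 genes between Mstn-null and WT MDSC was -0.08, as was that of all features. Without the first it was 0.53, against -0.17 over all features. In that fit 4 of the 10 genes had an unadjusted p under 0.05, against 17.5% of all features, and none passed the adjusted threshold (lowest adjusted p = 0.19). With 1 WT array left, that array is assumed to vary like the other groups. The difference of Fkbp10 was -0.33 with either WT array, whereas those of P4ha1, Plod2, P4ha3 and Bmp1 were above 0 without the first WT array and below 0 without the second.

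**Figure D4:**
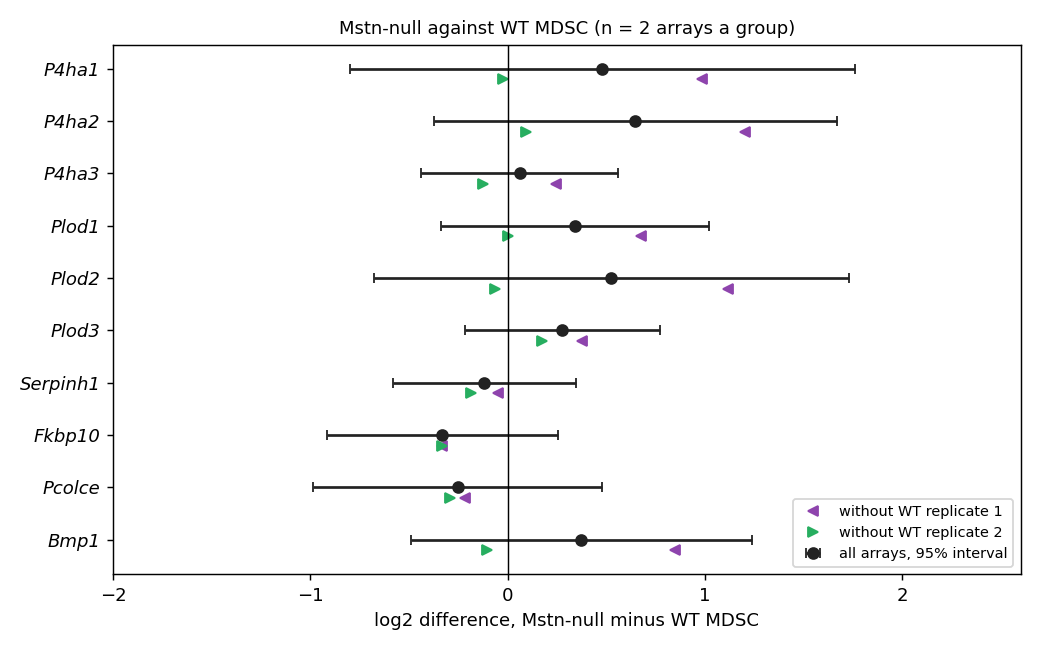
Log2 difference between Mstn-null and WT MDSC (x axis) for each of the 10 genes, with 95% intervals from all arrays (n = 2 a group) and the values without the first or the second WT array as triangles. All 10 intervals include 0, and in P4ha1, P4ha2, Plod2 and Bmp1 the triangles lie furthest apart.

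Markers of other cells differed between the same arrays. The mean level of 14 muscle markers was -0.08 and -0.46 in Mstn-null MDSC and 3.31 and 0.30 in WT MDSC, and -2.76 and -2.41 in ESC. That of 11 immune markers was 2.05 and 3.91 in Mstn-null MDSC and 0.40 and -1.27 in WT MDSC, and -3.49 and -3.09 in ESC. Ptprc and Cx3cr1 were not well above background on either ESC array, nor were Lyz2, Ctss and Tyrobp on ESC replicate 1. Of those 11, Aif1 and Cx3cr1 were not well above background on the second WT array. Of 12 fibroblast markers, all 12 were well above background on the 4 MDSC arrays. Their mean level was 5.45 and 5.57 in Mstn-null MDSC and 5.45 and 4.70 in WT MDSC, against 2.22 and -0.08 in ESC. The mean was lowest of the MDSC arrays on the second WT array, but the markers were mixed. That array was lowest in 7 of the 12, against 22.8% of all features, and highest in Vim, Ly6a, S100a4 and Twist2. The summed signals of the 12 markers, relative to the 75th percentile, were 1755 and 1850 in Mstn-null MDSC and 1565 and 1556 in WT MDSC, against 233 and 144 in ESC. The part of these markers in the differences between MDSC and ESC and between the genotypes was not tested.

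The 2 ESC arrays differed in fibroblast markers, of which Lum and Fap were not well above background on ESC replicate 2. Of the 12, 10 were higher on ESC replicate 1, with a median difference of 1.11 and a largest one of 8.11 (Lum), and Dcn was at 2.96 and -2.05. Of the 10 collagen enzymes and helpers, 3 (P4ha1, P4ha3 and Pcolce) were higher on ESC replicate 1, against 44.7% of all features, and the median difference of the 10 was -0.19, from -0.54 (Fkbp10) to 0.77 (Pcolce). Leaving out ESC replicate 1 and the second WT array together was an alternative chosen after seeing the data. The differences of the 10 genes between MDSC and ESC then ran from 1.84 to 4.20, against a median of -0.04 over all features.

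The rest of the collagen pathway was read from lists chosen with earlier results known. Of 14 other tested genes for collagen modification and folding, 13 were higher in MDSC and 0 lower, with a median of 1.89. The largest were the prolyl isomerase genes Fkbp14 (16.0-fold higher, log2 SE 0.23) and Fkbp7 (3.92 ± 0.30) and the prolyl 3-hydroxylase family gene P3h3 (3.77 ± 0.46, 4.49 without ESC replicate 1 and 3.04 without ESC replicate 2). Tmem38b, an ion channel gene of the endoplasmic reticulum, did not pass (0.17, adjusted p = 0.611), and P3h2 and Colgalt2 were too dim to be tested. Of 12 general chaperone and oxidase genes of the same compartment with a test, 7 were higher and 0 lower, with a median of 0.98. That median lay below the lowest of the 10 differences, but the lists overlapped. Dnajc3, the largest of the 12, stood at 2.47, above Plod2 (2.27) and the brightest probe of P4ha3 (1.67), but below its other probe (3.99).

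Of 11 genes for export of procollagen and retrieval of its helpers, 8 were higher and 1 lower, with a median of 1.40. The shares over all features tested were 28.3% and 31.4%. Kdelr3 (3.37 ± 0.20) and Kdelr1 (1.81 ± 0.13) encode receptors that return escaped proteins to the endoplasmic reticulum, and Sec24d (2.46 ± 0.16) a coat protein of export vesicles. Klhl12, an adaptor for enlarging such vesicles, was the one that was lower (-1.12 ± 0.16, adjusted p = 0.00382). Of 5 other genes for propeptide cleavage with a test, 2 were higher and 1 lower, with a median of -0.23. With so few genes, these counts do not stand apart from the 28.3% and 31.4% of all features. Adamts2, the main procollagen N-proteinase gene, was higher by 6.32 ± 0.80, by 7.62 without ESC replicate 1 and by 5.01 without ESC replicate 2. Tll1, a close relative of Bmp1, was higher by 1.38 ± 0.33, a call that ended when either ESC array was left out (adjusted p = 0.0699 without the first and 0.0932 without the second). Mep1b, a meprin subunit gene, was not well above background on the 4 MDSC arrays and was at least 27.2-fold lower in MDSC.

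All 5 lysyl oxidase genes, whose enzymes start the crosslinks, were higher in MDSC (median 4.29), beside 28.3% of all features tested. Lox stood at 6.44 ± 0.26, Loxl3 at 4.48 ± 0.31 and Loxl1 at 4.29 ± 0.49. Of 11 fibrillar collagen chain genes, 9 were higher and 0 lower (median 4.16), beside 28.3% and 31.4% of all features tested. Col3a1 stood at 5.61 ± 1.09, Col5a2 at 5.24 ± 0.30 and Col11a1 at 5.06 ± 0.83. Without ESC replicate 1, Loxl1 stood at 5.14, Col3a1 at 7.26 and Col11a1 at 4.03. Without ESC replicate 2, Loxl1 stood at 3.43, Col3a1 at 3.97 and Col11a1 at 6.10, and all 3 kept their calls. Both medians lay above the 2.95 of the 10 enzymes and helpers, and that gap was not tested. Unlike the 10 genes, 9 of the 11 chain genes were higher on ESC replicate 1 than on ESC replicate 2, against 44.7% of all features. The median difference of the 11 was 0.52, and that of Col3a1 was 3.29. In none of these 5 lists was a gene called between Mstn-null and WT MDSC. Of 13 hypoxia-inducible genes, 6 were higher and 2 lower in MDSC (median 1.09), beside 28.3% and 31.4% of all features tested. Adm stood at 5.15, Car9 at 3.34, Vegfa at 2.81, Slc2a1 at -1.55 and Pdk1 at -1.64. Car9 was not looked at with an array left out. The calls of Slc2a1 and Pdk1 ended without ESC replicate 2 (adjusted p = 0.0919 and 0.0567).

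**Figure D5:**
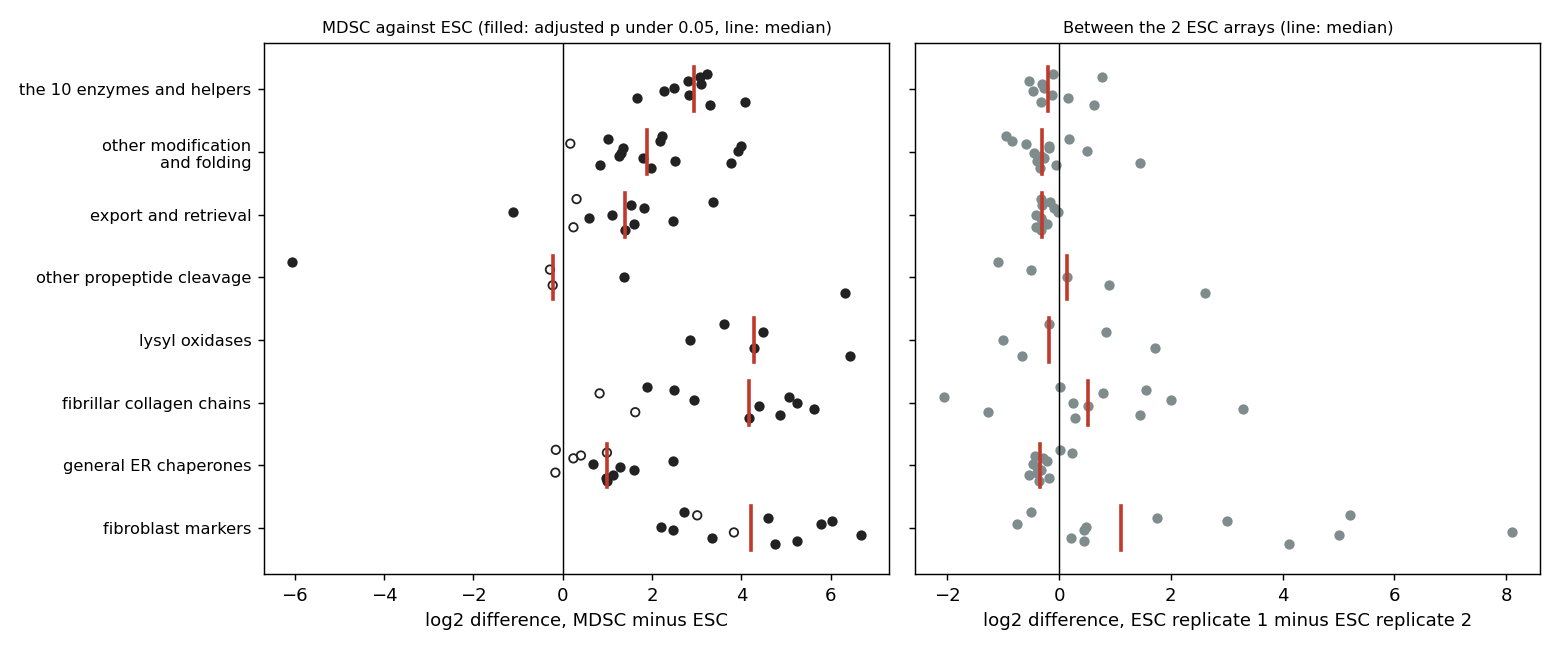
Log2 difference of each tested gene between MDSC and ESC (left, filled where adjusted p was under 0.05) and between the 2 ESC arrays (right), by gene list, with the list medians as red lines. On the left the 10 enzymes and helpers stand at a median of 2.95, between general chaperones at 0.98 and fibrillar chains at 4.16. On the right they stand at -0.19 and fibroblast markers at 1.11.

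Of 12307 named genes in none of the lists and well above background on all arrays (predicted genes and clone names left out), the 5 whose values over the 6 arrays were most like the mean of the 10 genes were Saraf, Fbln2, Qsox1, Arfgap3 and Myo1d. Their Pearson correlations with that mean were 0.999 or higher over 6 arrays. The 6 points fall into MDSC and ESC, and 393 of the genes had a correlation over 0.99. This only describes a shared gap and a similar, not identical, order within MDSC. Fbln2, a fibulin gene of the matrix, was at 8.04 and 8.28 in Mstn-null MDSC and 8.25 and 7.26 in WT MDSC, against 2.84 and 3.12 in ESC. Qsox1, which encodes a secreted sulfhydryl oxidase, was at 5.12 and 5.20 in Mstn-null MDSC and 5.29 and 4.82 in WT MDSC, against 2.62 and 2.64 in ESC. In all 5 the second WT array was the lowest of the 4 MDSC arrays. That follows from choosing them by likeness to the mean of the 10 genes, which was also lowest there among the MDSC arrays.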

How the data were processed

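RNA from 6 cultures was Cy3-labelled and hybridised to 1-colour Agilent arrays, per the labels' protocols. The deposited files hold spot intensities made by the authors with Agilent's Feature Extraction software. The file headers name version 10.7.1.1, whereas the submitters' processing notes name 9.1. The processed intensity was background corrected but not scaled between arrays, per the file headers, and the array design used mouse build mm9.

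Values were log2 of the processed intensity minus the 75th percentile of the array, taken over spots that are no controls. Spots with an outlier flag, 100 to 122 on an array, were left out. No spot was saturated, and the number of arrays limits the precision. Of 55681 probes, 26413 matched 1 symbol through their accession in the RefSeq table. A gene was represented by its brightest probe over the 6 arrays and tested where both arrays of some group read it well above background, which kept 25057 of 37153 genes and unnamed features.

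The 3 group means were fitted by limma (version 3.58.1, R version 4.3.3) with its moderated two-sided test, on 3 residual and 2.02 prior degrees of freedom. P-values were adjusted by Benjamini-Hochberg over all features tested, and 0.05 was the threshold. For MDSC against ESC, both MDSC groups were averaged with equal weight. An exact permutation test of 2 against 2 arrays reaches 0.333 at best. MDSC arrays are of separate isolations per the labels, whereas the ESC arrays are passages of 1 line. Where a gene was too dim on every array of one side, its fold is a lower bound. The bright side's mean is then divided by a floor, for each dim array the larger of the gene's own signal and the weakest signal that counted as above background there. The steps were tested on simulated data.

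The 10 genes and the other lists were chosen with earlier results of these data known. From the 5 other collagen lists the text names the 3 largest differences past the threshold. P4hb, Klhl12, Tmem38b, Dnajc3, the hypoxia-inducible genes and the markers given with values were named after their values were seen. Alternatives were quantile normalization, median centring, normexp (offset 50) on median spot signals, since the files give no mean signal, other filters on dim probes, outlier flags kept, the mean over probes, a fit to the compared groups alone, a robust fit with a variance trend, each array left out, a block by isolation number, and 1 slide alone. Figures were drawn with matplotlib 3.10.9.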

Additional observations from a re-analysis of the deposited data

How the results depend on the processing

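All 10 genes kept their direction in each of the 3 comparisons with ESC under every alternative, and Plod2 alone lost calls, each time with 1 array left out, as given above. Without 1 array, 9 or 10 of the 10 genes were called higher in MDSC versus ESC, in WT MDSC versus ESC and in Mstn-null MDSC versus ESC, and 0 lower. The number of genes called of all tested ran from 11887 to 13860, from 9386 to 11031 and from 7973 to 12912 in these comparisons, against 14946, 13294 and 13574 with all arrays. In Mstn-null versus WT MDSC no alternative called any of the 10 genes, and the count over all features was 0 except with quantile normalization, which called 25. There Serpinh1 turned to 0.0381 with quantile normalization and to 0.0420 with median centring. With 1 array left out, P4ha1 ran from -0.0255 to 0.985, P4ha3 from -0.125 to 0.246, Plod2 from -0.0639 to 1.115 and Bmp1 from -0.103 to 0.850, each below 0 without WT replicate 2. The cause was not tested. Median centring moved the median of all features in MDSC versus ESC to 0.12, against -0.03, and in Mstn-null versus WT MDSC to 0.04, against -0.12, so differences of that size depend on the scaling. With the isolation number as a replicate block, 0 of the 10 genes and 0 of all features were called. Deviations of same-numbered Mstn-null and WT arrays correlated with r = -0.40 over genes. With 2 arrays a group, this cannot show whether the isolations were paired. With crossed pairing, chosen after seeing the data, 0 genes were called. With 2 arrays a group, only large differences between the genotypes could pass.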
